A study of Mus musculus with 16 samples.

Results

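The genes described here are the nuclear genes for subunits of the 5 oxidative phosphorylation complexes of the mitochondrial inner membrane. They were chosen by symbol alone: Nduf genes of the a, b, c, s and v series, Sdha to Sdhd, Uqcr genes, Cox4 to Cox8 genes and Atp5 genes. A total of 77 such genes were listed in all 16 libraries, out of 13396 genes listed in every library. By the complex of the protein, 35 belong to complex I, 4 to complex II, 8 to complex III, 13 to complex IV and 15 to complex V. The symbol Ndufa4 was placed in complex IV, where its product is now assigned. The products of 2 genes that fit the symbol pattern, Atp5s and Atp5sl, are not subunits, so they were counted as members and kept out of the complexes. Cox4i2 and Cox7a1 were listed in 12 libraries and Cox6a2 in 6, so these isoform genes are not among the 77.

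The libraries were RNA-seq of total RNA from the cortex and the hippocampus of WT mouse fetuses at embryonic day 18.5. The exposure was prenatal, according to the title of the series, and was either an enriched environment (EE) or standard habitation (SH). Cortex had 5 EE and 5 SH libraries and hippocampus had 3 EE and 3 SH. Every library was dissected tissue labelled as brain, with no strain, sex, litter or pooling given. Libraries of a group may therefore come from the same litter, and the p-values describe how libraries spread, not how litters do. Levels are FPKM, fragments counted on a gene scaled to its transcript length and to the depth of the library. The tables list a common set of 15996 genes in cortex replicates 1 to 3, 13448 in cortex replicates 4 and 5 and 15247 in hippocampus, so EE and SH were also compared within each of these 3 sets.

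Oxidative phosphorylation passes electrons from NADH through complex I, or from succinate through complex II, to ubiquinone, on to cytochrome c through complex III and to oxygen through complex IV. The proton gradient that complexes I, III and IV build drives ATP synthesis by complex V. Most subunits are encoded in the nucleus and imported, while a few core subunits are encoded in mitochondrial DNA. Neurons depend on this pathway for most of their ATP, and its capacity grows as the brain matures.

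Depth was similar among libraries of a set. Reads recovered from the FPKM steps numbered 15388361 to 20795481 per library in cortex replicates 1 to 3, 11267291 to 11986846 in cortex replicates 4 and 5 and 16338329 to 21263316 in hippocampus. The members had 29 to 37565 recovered reads per library. Recovery takes the smallest whole values for each gene, so all these numbers can fall short of the true reads. The hippocampus markers Prox1, Zbtb20, Lhx2 and Lef1 summed to 78.5 to 116.0 FPKM in hippocampus and to 26.1 to 35.7 FPKM in cortex, so every hippocampus library lay above every cortex library. The choroid plexus markers, of which Ttr is the most abundant, ranged from 45.8 to 17081 FPKM among the hippocampus libraries. Cortex SH replicate 3 stood apart: its FPKM summed to 511438, against 339726 to 396658 in the other 15 libraries, and it is left out as well as kept in the comparisons that hold it.

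The members were among the most abundant transcripts of these tissues. Of the 77, 68 lay in the top 10% of genes by median FPKM and 41 in the top 5%, and 2 lay below the median gene. The median member had 97.1 FPKM, against 9.61 FPKM for the median gene tested in cortex. Together they made up 2.38 to 3.29% of all FPKM in 15 libraries and 4.67% in cortex SH replicate 3. In that library they summed to 23881 FPKM, against 8074.5 to 13062 FPKM elsewhere.

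**Figure D1:**
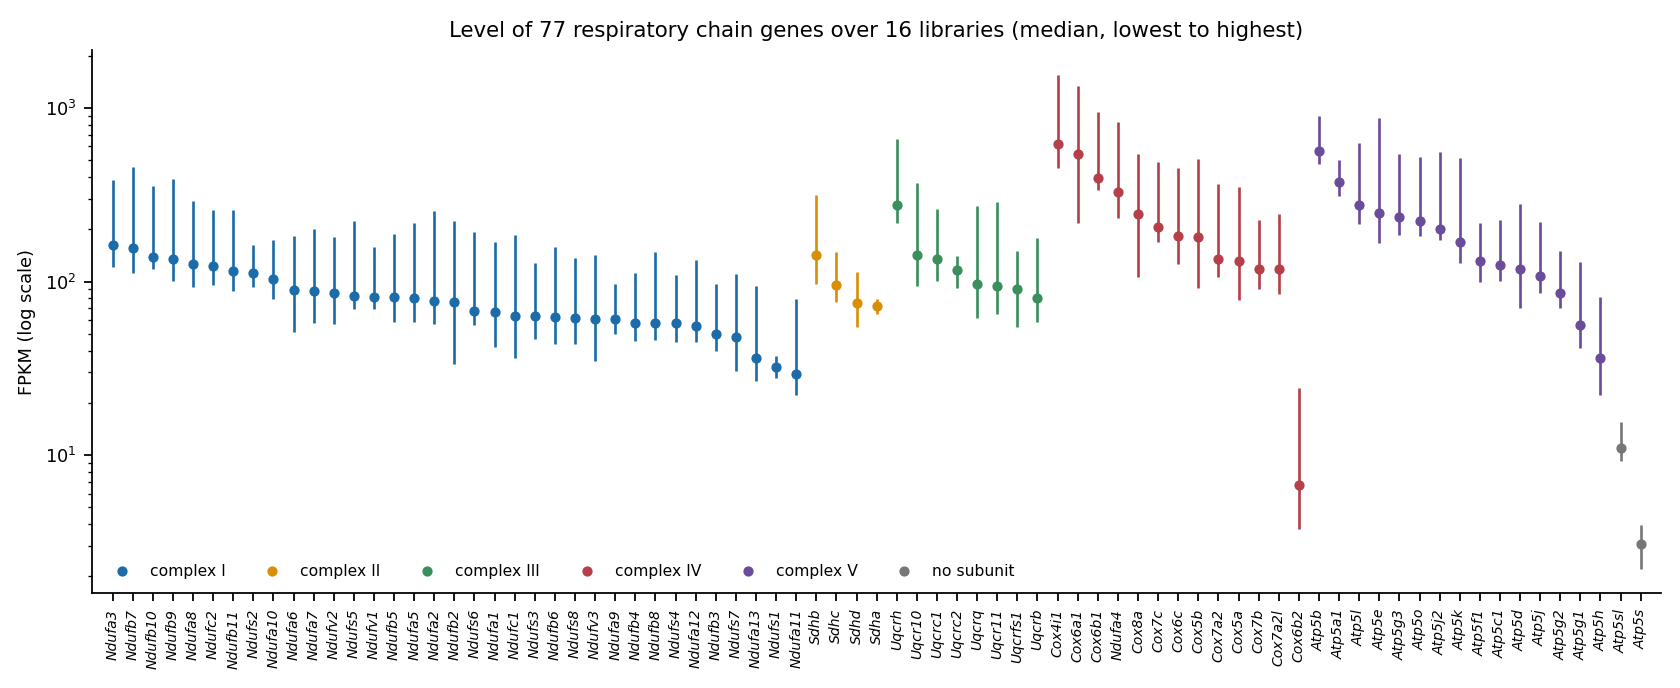
FPKM of each member on a log scale, by complex: points are medians over 16 libraries and lines run from the lowest to the highest library. Cox4i1 at 616.1 FPKM and Atp5b at 568.6 FPKM lead, while Cox6b2 at 6.75 FPKM and the 2 genes that are no subunits lie far below the rest.

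Levels differed by complex and were highest in complexes IV and V. The median member had 182.1 FPKM in complex IV, 168.0 FPKM in complex V, 106.5 FPKM in complex III, 85.4 FPKM in complex II and 76.2 FPKM in complex I. FPKM are scaled to length, but the complexes differ in transcript length, with medians of 519.5 nucleotides for III, 606 for IV, 747.5 for V, 782 for I and 1612 for II. How far length bears on this order was not tested. Within complex I the range was from Ndufa11 at 29.4 FPKM to Ndufa3 at 162.6 FPKM. The core subunits of complex I that carry its flavin and iron-sulfur clusters lay inside this range, with medians of 32.4 FPKM for Ndufs1, 47.8 FPKM for Ndufs7 and 81.9 FPKM for Ndufv1. In complex II, the flavoprotein Sdha had 72.5 FPKM and the iron-sulfur protein Sdhb 141.3 FPKM. Complex III ran from Uqcrb, at 80.05 FPKM, to the hinge protein gene Uqcrh, at 276.3 FPKM. Its Rieske iron-sulfur protein gene Uqcrfs1 had 90.3 FPKM and the core protein gene Uqcrc1 135.4 FPKM. In complex V, the catalytic beta subunit Atp5b was highest and the peripheral stalk subunit Atp5h lowest, at 36.3 FPKM.

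Several subunits have isoform genes, and 1 form led each set. Among the 3 genes for the membrane ring of ATP synthase, Atp5g3 supplied a median of 65.4% of the summed FPKM in cortex and 61.5% in hippocampus. Atp5g2 supplied 20.4% and 23.6%, and Atp5g1 14.4% and 13.4%. Cox6b2, an isoform best known from testis, supplied 1.46% of the Cox6b pair in cortex and 2.62% in hippocampus, the rest being Cox6b1. Cox7a2 supplied 56.4% of its pair with Cox7a2l in cortex and 54.6% in hippocampus, where Cox7a2l encodes a supercomplex factor. The isoforms known from heart and muscle were scarce: Cox7a1 had at most 5.26 FPKM, Cox6a2 at most 4.42 FPKM and Cox4i2, a lung isoform, at most 1.67 FPKM in the libraries that list them. Members with processed pseudogenes or close paralogs, such as the Atp5g genes, may share reads with them, and how such reads were assigned is not given in the sources used here.

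Promoters are shown for 6 members that the comparisons below turn on: 5 that were higher in EE than in SH in cortex replicates 4 and 5, and Sdha, which was nearly constant. They are RefSeq windows of GRCm38.p6 from 250 bases before to 50 after an annotated start, and 66 of the 77 members had such a window. Capitals mark letters of 3 motifs of factors known to bind respiratory chain promoters, searched on both strands: GCGCA and GCGC with 1 base of any kind between them (NRF1), CCGGAAG (GABP) and AANATGGC (YY1). Where motifs overlap, their capitals run together.
Cox6a1 (chr5:115348909-115349208, minus strand): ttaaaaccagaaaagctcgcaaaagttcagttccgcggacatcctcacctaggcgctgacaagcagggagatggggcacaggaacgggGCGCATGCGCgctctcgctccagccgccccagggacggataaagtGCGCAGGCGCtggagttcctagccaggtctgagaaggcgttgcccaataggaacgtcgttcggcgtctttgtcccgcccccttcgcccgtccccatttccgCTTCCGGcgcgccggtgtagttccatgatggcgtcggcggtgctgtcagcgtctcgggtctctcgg
Cox8a (chr19:7217567-7217866, minus strand): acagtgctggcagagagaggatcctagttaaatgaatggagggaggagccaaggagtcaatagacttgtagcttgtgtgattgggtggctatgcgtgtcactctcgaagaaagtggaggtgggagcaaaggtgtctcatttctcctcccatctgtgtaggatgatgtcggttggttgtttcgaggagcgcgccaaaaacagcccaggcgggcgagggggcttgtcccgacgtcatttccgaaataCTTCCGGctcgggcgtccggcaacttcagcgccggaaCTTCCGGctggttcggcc
Cox5a (chr9:57520982-57521281, plus strand): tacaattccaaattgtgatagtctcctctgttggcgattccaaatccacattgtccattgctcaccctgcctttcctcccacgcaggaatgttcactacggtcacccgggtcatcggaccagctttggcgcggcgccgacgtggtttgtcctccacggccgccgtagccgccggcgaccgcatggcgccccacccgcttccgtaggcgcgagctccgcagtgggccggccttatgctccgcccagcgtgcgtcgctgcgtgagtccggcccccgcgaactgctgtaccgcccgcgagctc
Cox5b (chr1:36691237-36691536, plus strand): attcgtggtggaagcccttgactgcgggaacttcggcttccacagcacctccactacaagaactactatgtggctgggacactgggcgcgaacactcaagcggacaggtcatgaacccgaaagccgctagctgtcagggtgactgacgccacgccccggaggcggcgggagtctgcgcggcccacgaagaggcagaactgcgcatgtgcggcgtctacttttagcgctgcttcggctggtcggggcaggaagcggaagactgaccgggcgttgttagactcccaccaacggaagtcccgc
Ndufb2 (chr6:39592315-39592614, plus strand): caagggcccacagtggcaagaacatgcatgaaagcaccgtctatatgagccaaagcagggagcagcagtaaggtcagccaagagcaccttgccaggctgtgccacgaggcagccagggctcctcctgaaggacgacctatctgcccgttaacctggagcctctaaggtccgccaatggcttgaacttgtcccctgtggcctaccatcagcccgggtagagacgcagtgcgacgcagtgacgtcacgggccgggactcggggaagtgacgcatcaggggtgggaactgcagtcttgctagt
Sdha (chr13:74350191-74350490, minus strand): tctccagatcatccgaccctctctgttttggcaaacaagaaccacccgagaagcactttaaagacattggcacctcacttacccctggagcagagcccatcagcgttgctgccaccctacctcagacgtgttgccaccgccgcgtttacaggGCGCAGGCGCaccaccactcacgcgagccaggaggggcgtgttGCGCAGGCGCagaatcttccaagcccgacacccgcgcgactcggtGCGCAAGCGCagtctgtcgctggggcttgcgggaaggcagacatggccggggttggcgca
In these windows Sdha held 3 NRF1 matches, Cox6a1 2 NRF1 matches and 1 GABP match, and Cox8a 2 GABP matches. Cox5a, Cox5b and Ndufb2 held none of these letters. Over the 66 members, 17 had the NRF1 letters (25.8%, against 11.4% of 10493 genes with such windows), 18 the YY1 letters (27.3% against 9.69%) and 16 the GABP letters (24.2% against 19.3%). The letters TATAAA were in 5 member windows (7.58% against 8.46%). YY1 letters were in 12 of 31 complex I genes and NRF1 letters in 6 of 14 complex V genes. The median GC content was 58.3% in member windows and 61.3% in all. These matches describe letters, not bound sites.

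The first comparison asked whether members differed between EE and SH cortex over replicates 1 to 5. None of the 77 passed the threshold of an adjusted p of 0.05 (limma, Benjamini-Hochberg over 12539 genes), where 0.00798% of all genes did. A single member had an unadjusted p below 0.05, where 7.45% of all genes had, and limma-voom on recovered reads called 0. The median log2 difference, EE minus SH, was -0.17 over members and -0.02 over all genes, with 5 of 77 members above 0. It was -0.04 once the trend on transcript length and GC was taken out, -0.09 with quantile normalization and -0.34 without EE replicate 5. The member with the smallest p was Cox6b2. Its FPKM was 5.74, 5.96, 5.59, 3.77 and 5.06 in EE replicates 1 to 5 and 9.27, 7.53, 14.5, 5.66 and 5.13 in SH. The groups overlapped through SH replicates 4 and 5. The log2 difference was -0.53 ± 0.17 (SE, n = 5 and 5; limma, adjusted p = 0.469). The smallest p in the other complexes belonged to Ndufs6, Atp5h, Sdhd and Uqcr11, with adjusted p of 0.739 to 0.838. Without cortex SH replicate 3 the member median was 0.04, with 49 of 77 above 0. The direction of that median thus turned on 1 library.

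**Figure D2:**
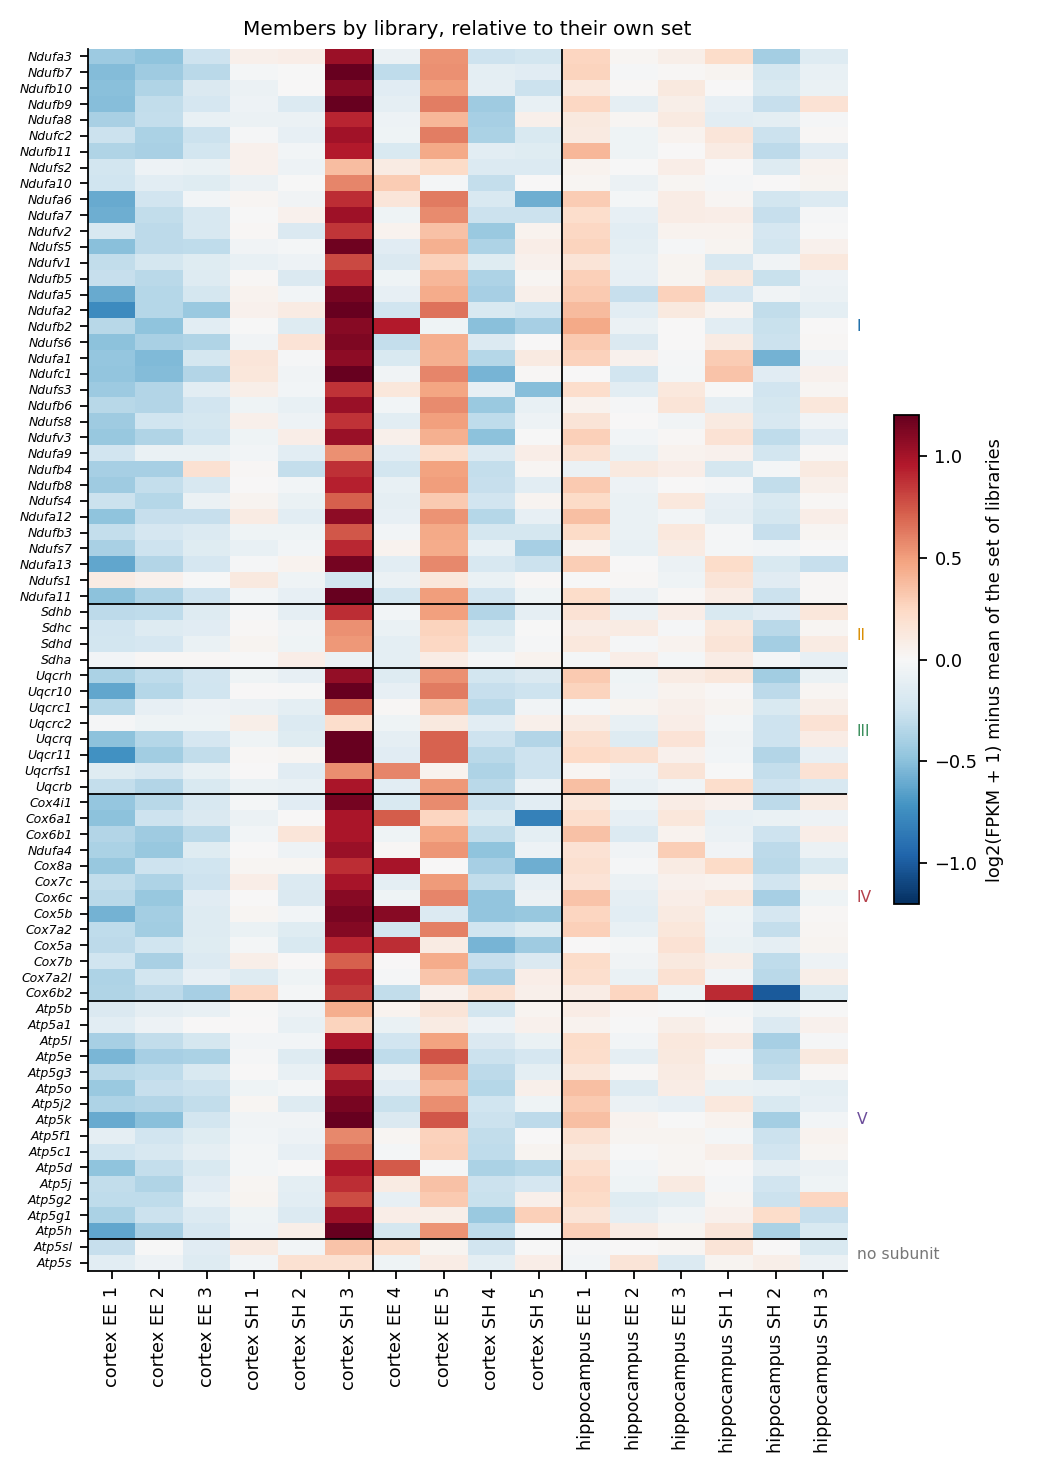
Each member (lines of the map, by complex) in each library, as log2(FPKM + 1) minus the mean of the library's own set. Red is above and blue below that mean, with colours ending at 1.2 on either side. Cortex SH replicate 3 is red for 75 of 77 members, and cortex EE replicate 4 is red for 22, among them Cox5a, Cox5b, Cox8a and Ndufb2.

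The sets of cortex replicates went in opposite directions. Within replicates 1 to 3, EE was lower: 60 of 77 members had all 3 EE libraries below all 3 SH libraries, where 18.6% of all genes did, and 0 had the reverse, where 11.2% of all genes did. The median log2 difference was -0.61 over members and -0.03 over all genes. By complex the medians were -0.61 for I, -0.34 for II, -0.58 for III, -0.62 for IV and -0.54 for V. No member passed the threshold, and no gene of the 12890 tested did. There were 23 members with an unadjusted p below 0.05 (29.9%), all lower in EE, where 9.29% of all genes had such a p and 7.37% were lower. Limma-voom called 0.

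Ndufa2, an accessory subunit of complex I, is an example of this pattern. Its FPKM was 56.6, 75.7 and 70.0 in EE replicates 1, 2 and 3 and 99.6, 102.5 and 253.3 in SH. All 3 EE values lay below all SH values, and SH replicate 3 lay far above the other SH libraries. The log2 difference was -1.03 ± 0.35 (SE, n = 3 and 3; limma, adjusted p = 0.414). Uqcr11, a small subunit of complex III, had 64.8, 80.8 and 88.0 FPKM in EE and 109.2, 109.6 and 286.1 FPKM in SH. Its difference was -0.96 ± 0.37 (SE; limma, adjusted p = 0.414), again without overlap. Cox6b2 had 5.74, 5.96 and 5.59 FPKM in EE and 9.27, 7.53 and 14.5 FPKM in SH. Its log2 difference of -0.71 ± 0.22 (SE; limma, adjusted p = 0.414) had the smallest p of the members. For Atp5h the difference was -0.81 ± 0.32 and for Sdhb -0.51 ± 0.26 (SE), with the same adjusted p of 0.414 in limma. Without SH replicate 3 the differences were -0.59 for Ndufa2, -0.50 for Uqcr11, -0.47 for Cox6b2, -0.41 for Atp5h and -0.20 for Sdhb, with adjusted p of 0.0961 to 0.243 (limma).

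Much of the size of these differences came with SH replicate 3. That library was the highest of the 6 for 75 of 77 members, where 36.0% of all genes had it highest. The exceptions were Ndufs1 and Sdha. The member median in it, relative to the mean of the other 5, was 1.16 on the log2 scale, and over all genes it was -0.07. Atp5e, the epsilon subunit of ATP synthase, had 880.2 FPKM there and 210.4 to 306.5 FPKM in the other 5. Cox4i1, the regulatory subunit IV of cytochrome oxidase, had 1552.1 FPKM there and 506.3 to 687.5 FPKM in the others. Sdha had 69.1 FPKM there and 70.7 to 76.5 FPKM in the others, and Ndufs1 29.4 FPKM against 33.1 to 37.2 FPKM. Both are long transcripts. Atp5g1 and Ndufb2, annotated at 2675.5 and 2413 nucleotides, were nonetheless higher there, by 1.22 and 1.32 on the log2 scale. Annotated lengths are medians over the transcripts of a gene and may differ from the lengths expressed.

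The excess in that library was larger for shorter transcripts. Over the 77 members, Spearman's rho between length and the log2 difference of SH replicate 3 from the other 5 was -0.65, a description over genes of 1 library. Members are short: their median transcript length was 747.5 nucleotides, against 2771.5 for all genes tested in cortex. For genes of up to 1000 nucleotides the median difference was 0.85 over all 1197 genes and 1.25 over 50 members. For those over 1500 nucleotides it was -0.22 over 10109 genes and 0.59 over 16 members. Cytosolic ribosomal protein genes summed to 67624 FPKM in that library and to 22453 to 30722 FPKM in the other 5. Erythroid markers summed to 4072.6 FPKM there and to at most 1798.5 FPKM in the other cortex libraries. The mitochondrially encoded subunits went the other way, at 15341 FPKM, the lowest of the cortex libraries.

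**Figure D3:**
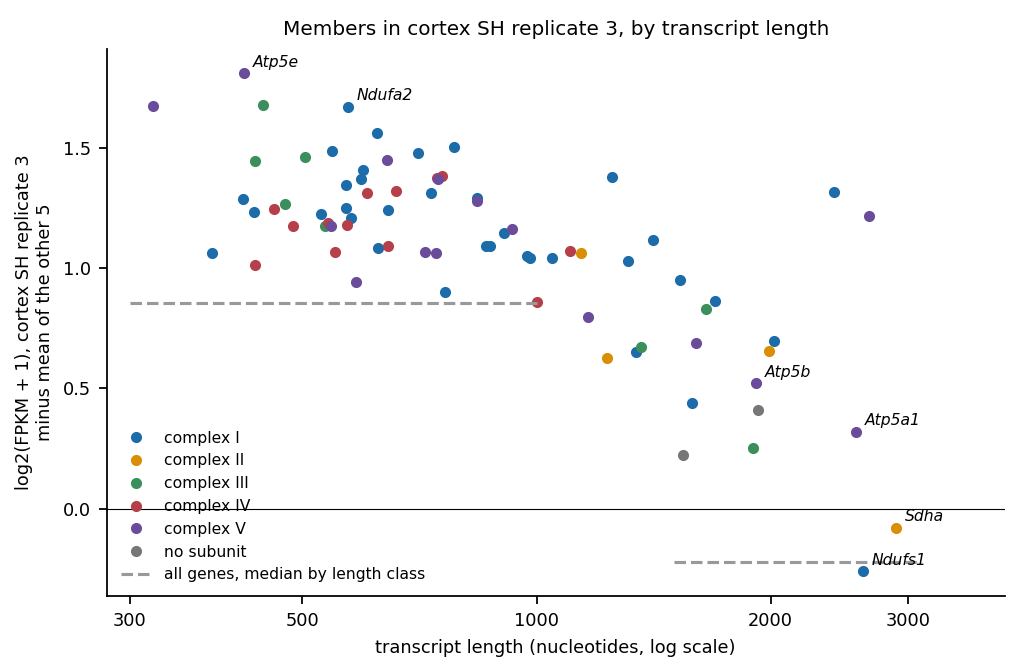
Log2(FPKM + 1) of each member in cortex SH replicate 3 minus the mean of the other 5 libraries of its set, against transcript length on a log scale. Dashed lines are medians of all genes up to 1000 nucleotides (0.85) and over 1500 (-0.22). Short members such as Atp5e and Ndufa2 lie highest, and the long Sdha and Ndufs1 lie below 0. Atp5g1 and Ndufb2, long by annotation, lie at 1.22 and 1.32.

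Without SH replicate 3, EE still lay below SH, by less. All 3 EE libraries lay below both other SH libraries for 60 of 77 members, where 25.7% of all genes had this order. The member median was then -0.24 on the log2 scale, and the median over all genes -0.05. Of 77 members, 2 were above 0, where 36.9% of all genes were. No member passed the threshold then, while 1 gene was called higher and 11 lower among 12902 tested. By complex the member median was -0.29 for I, -0.16 for II, -0.21 for III, -0.28 for IV and -0.23 for V. Transcript length moved with this remaining difference as well: Spearman's rho between length and EE minus SH over the 5 libraries was 0.68 over members and 0.46 over 12680 genes, a description over genes. Genes of up to 1000 nucleotides had a median of -0.20 over all 1178 and of -0.30 over 50 members. After a trend on length and GC content was removed from each library, the median over members was -0.22 with all 6 libraries. What else moves with the remaining difference was not tested.

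Within cortex replicates 4 and 5, EE was higher. Of 77 members, 7 passed the threshold, all higher in EE, where 3.46% of all genes were called in either direction and 1.67% higher. They were Cox5a, Cox5b, Cox6a1 and Cox8a of complex IV, Ndufb2 and Ndufa6 of complex I and Atp5d, the delta subunit of complex V. None was called lower, where 1.79% of all genes were. Quantile normalization changed the split over all genes to 1.76% higher and 1.16% lower and called 5 members. Limma-voom called 6, without Atp5d, where 0.867% of all genes were called higher and 2.19% lower. Both EE libraries lay above both SH libraries for 37 of 77 members, where 21.7% of all genes had this order. Both lay below for 1, Cox6b2, where 24.9% of all genes had this order. The median log2 difference was 0.38 over members and -0.01 over all genes, and 75 of 77 members were above 0. This median was 0.12 without EE replicate 5, with 55 of 77 above 0, and 0.61 without EE replicate 4, and quantile normalization gave 0.18.

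The 4 complex IV genes had the largest differences. Cox5a, a matrix-side subunit of cytochrome oxidase, had 214.4 and 123.2 FPKM in EE replicates 4 and 5 and 77.9 and 85.8 FPKM in SH. The gene spans chr9:57521274-57532426 on the plus strand of mm10 in GENCODE. The difference was 0.98 ± 0.23 (SE, n = 2 and 2; limma, adjusted p = 0.00206). Cox5b, the zinc-binding matrix-side subunit, had 274.4 and 114.3 FPKM in EE and 91.6 and 93.1 FPKM in SH, a difference of 0.93 ± 0.23 (limma, adjusted p = 0.00482). Replicate 4 carried most of the EE excess in both genes.

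Cox8a, a membrane subunit, had 317.4 and 159.6 FPKM in EE and 120.6 and 105.8 FPKM in SH. Its difference was 0.99 ± 0.24 (limma, adjusted p = 0.00344). Cox6a1, the liver-type form of subunit VIa, had 630.0 and 454.0 FPKM in EE and 335.2 and 216.3 FPKM in SH, a difference of 0.99 ± 0.28 (limma, adjusted p = 0.0177). The groups did not overlap, and EE replicate 4 was again the highest library of the set.

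Outside complex IV the called members were of similar size. Ndufb2, an accessory subunit of complex I, had 93.6 and 46.2 FPKM in EE and 33.6 and 36.2 FPKM in SH, a difference of 0.90 ± 0.21 (limma, adjusted p = 0.00264). Atp5d had 152.3 and 90.6 FPKM in EE and 70.0 and 71.8 FPKM in SH, a difference of 0.72 ± 0.22 (limma, adjusted p = 0.0365). Ndufa6, a complex I accessory subunit, differed from these in that EE replicate 5 was higher: 85.1 and 119.6 FPKM in EE and 67.6 and 51.0 FPKM in SH (0.77 ± 0.22; limma, adjusted p = 0.0184). In the complexes without a call, Uqcrfs1 had a difference of 0.62 ± 0.21 (limma, adjusted p = 0.0770) and Sdhb one of 0.46 ± 0.23 (limma, adjusted p = 0.278).

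**Figure D4:**
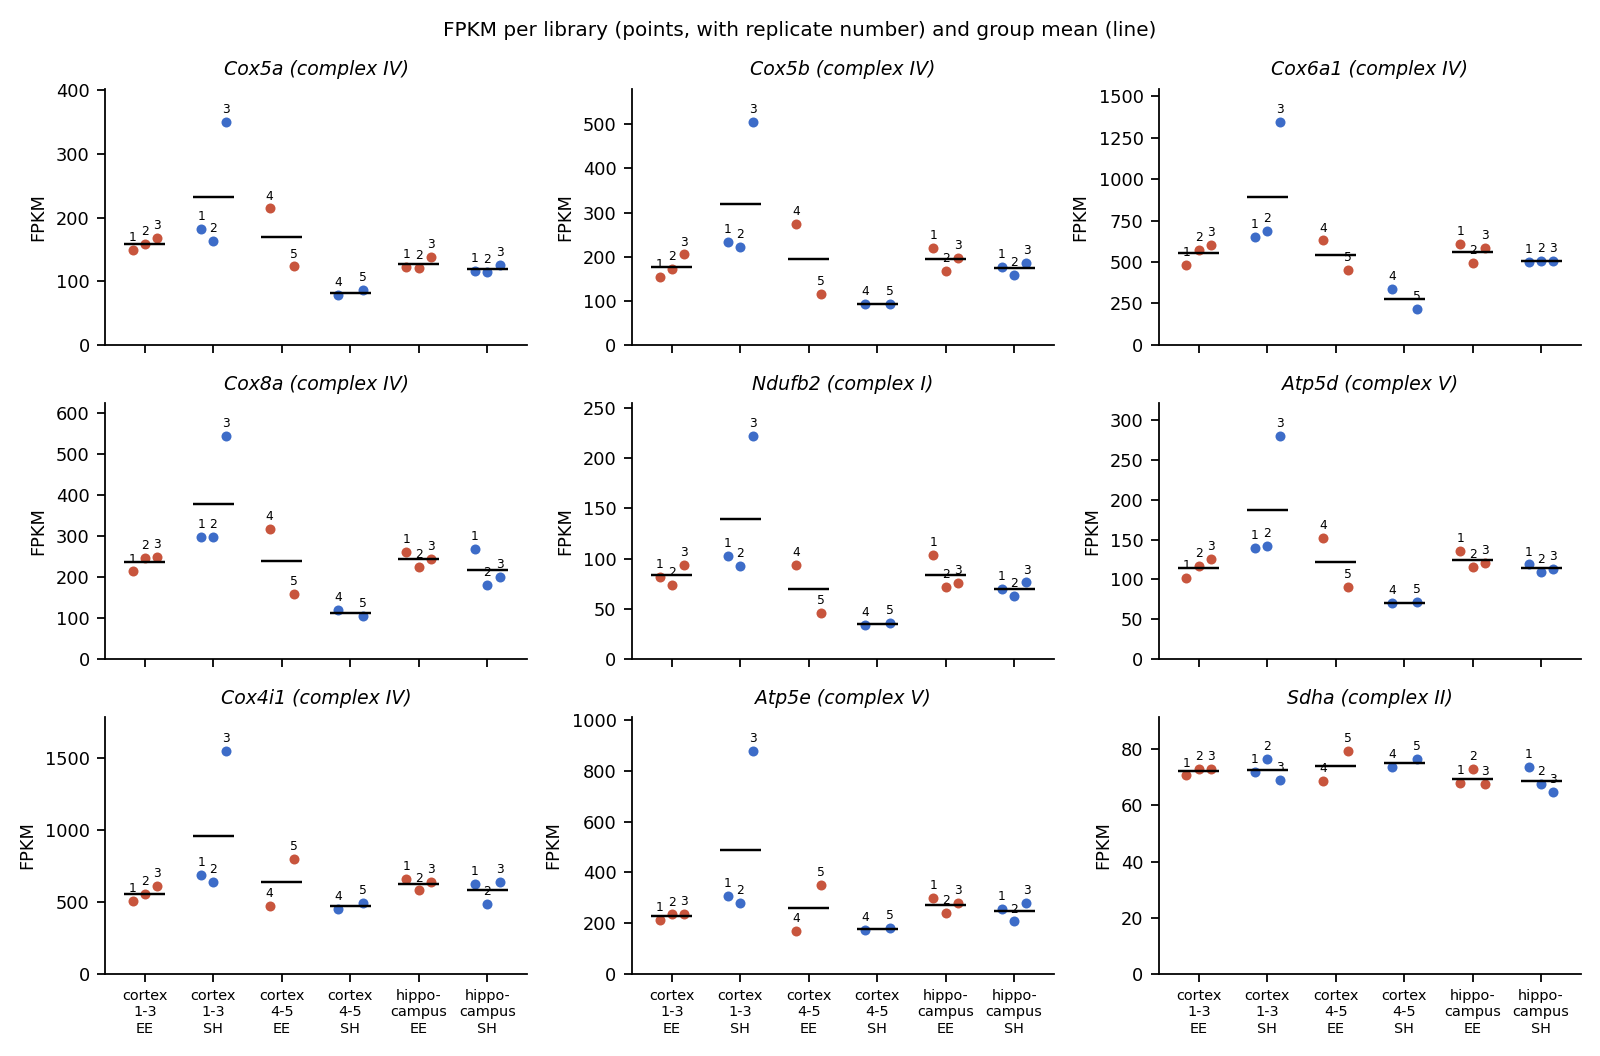
FPKM of 9 members in each of 16 libraries (red EE, blue SH, with replicate numbers) and the group mean as a line. The axes start at 0. The top 6 genes share a high EE replicate 4 among the 4 libraries of cortex replicates 4 and 5, Cox4i1 and Atp5e have EE replicate 5 highest there, and Sdha stays between 64.7 and 79.5 FPKM in all libraries.

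Most called members did not follow the other members across the 4 libraries. EE replicate 5 was the highest of the 4 for 66 of 77 members, where 26.7% of all genes had it highest. EE replicate 4 lay above EE replicate 5 for 10 members (13.0%, against 48.6% of all genes): Atp5d, Atp5g1, Atp5sl, Cox5a, Cox5b, Cox6a1, Cox8a, Ndufa10, Ndufb2 and Uqcrfs1. These 10 include 6 of the 7 called. Ndufa6 is the called member outside these 10. The 4 libraries were also set beside the 12 libraries numbered 1 to 3 of both tissues. For Atp5d, Cox5b, Cox6a1, Cox8a and Ndufb2, the other 3 libraries of the set lay below all of those 12 while EE replicate 4 did not. This order was found in 5 members (6.49%) and in 188 of 12672 genes (1.48%). With EE replicate 5 in that place it was found in 6 members (7.79%, against 1.23% of genes): Atp5e, Ndufb11, Ndufb7, Ndufs7, Sdhb and Uqcrq. These lists were read from the values and carry no test.

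The calls in this set rest on 4 libraries. With 2 residual degrees of freedom, limma set its prior degrees of freedom to infinite and gave each gene the spread of the trend over genes of its level, not its own. A 2-against-2 exact permutation test of a single gene cannot go below p = 0.333. Removing the trend on length and GC content left 0 calls and a member median of 0.15, and leaving out either SH library also left 0 calls. Leaving out EE replicate 4 gave 39 member calls, all higher, where 4.10% of all genes were called higher and 3.80% lower. Leaving out EE replicate 5 gave 7, of which 6 were among the original 7, where 6.4998% of all genes were called higher and 8.38% lower. In these fits 1 group is a single library, which is assumed to vary as the other group does. Choroid plexus markers summed to 721.4 FPKM in EE replicate 4 and to 48.4 to 52.3 FPKM in the other 3, and 3 of 6 markers tested were called higher in EE. Erythroid markers summed to 965.0 and 1798.5 FPKM in EE replicates 4 and 5 and to 869.7 and 1054.0 FPKM in SH, with 1 of 5 called higher. Microglia markers were above 0 for 7 of 7, with a median of 0.50 and 1 called higher. Of 4 endothelium markers, only 1 was above 0, and it was called higher, while the median of the 4 was -0.11. The part of these cells in the calls was not tested. In bulk tissue, a change in the make-up of cells and a change in RNA per cell cannot be told apart.

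In hippocampus EE and SH differed little. No member passed the threshold, and no gene of 13344 did. A single member, Uqcr11, had an unadjusted p below 0.05, where 3.77% of all genes had, and limma-voom called 0. Its FPKM was 116.1, 112.6 and 101.8 in EE and 96.4, 76.9 and 91.5 in SH, without overlap. The log2 difference was 0.32 ± 0.11 (SE, n = 3 and 3; limma, adjusted p = 0.9996). The median over members was 0.15, with 72 of 77 above 0, and -0.01 over all genes. All EE libraries lay above all SH libraries for 4 members (5.19%), where 2.59% of all genes had this order, and below for 0, where 7.32% did. Ndufa4, Ndufa6, Atp5h and Sdhb, the members of smallest p in the other complexes, had log2 differences of 0.29, 0.24, 0.28 and 0.12.

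Single libraries set much of the size, not the sign. EE replicate 1 was the highest of 6 for 53 members, where 13.6% of all genes had it highest, and SH replicate 2 was the lowest for 62, where 26.0% did. The member median fell to 0.07 without EE replicate 1 and to 0.06 without SH replicate 2. Removing the trend on length and GC content gave 0.04, and quantile normalization 0.07. Markers of some other cells also had log2 differences above 0, with 0 called. These were choroid plexus markers for 9 of 9 (median 0.91), microglia markers for 7 of 7 (0.32), erythroid markers for 5 of 5 (0.35) and striated muscle markers for 2 of 2 (0.18). The remaining lists were mixed, also with 0 called. Above 0 were 3 of 5 neuron markers (0.19), 4 of 6 for radial glia and progenitors (0.03) and 2 of 4 for endothelium (0.01). For dorsal telencephalon 2 of 5 were above 0 (-0.03), and for hippocampus 1 of 4 (-0.33). Choroid plexus markers summed to 5128.7, 10586 and 48.4 FPKM in EE replicates 1 to 3. In SH they summed to 17081, 45.8 and 161.0 FPKM, so the groups overlapped and the highest library was SH. The part of these cells in the median of the members was not tested.

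Direct tests of the difference between EE effects called no member. For hippocampus minus cortex replicates 1 to 3, the median over members was 0.75, and it was 0.38 without cortex SH replicate 3 and 0.27 once the trend on transcript length and GC was taken out. Of 77 members, 37 had an unadjusted p below 0.05 (48.1%, against 7.52% of all genes), and the smallest adjusted p was 0.495 (limma). Ndufa2 and Uqcr11 had the smallest p there, each with a difference of 1.28 ± 0.42 (SE), and with 0.84 and 0.82 without cortex SH replicate 3. For cortex replicates 4 and 5 minus 1 to 3, the median was 0.98, and it was 0.66 without cortex SH replicate 3 and 0.31 with the trend removed. Of 77 members, 41 had an unadjusted p below 0.05 (53.2%, against 19.4% of all genes), and the smallest adjusted p was 0.251 (limma). Cox8a had the smallest p there, with a difference of 1.61 ± 0.45 (SE), and with 1.32 without cortex SH replicate 3. Limma-voom called 0 members in both, and no gene passed in either, among 13158 and 12539 tested.

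**Figure D5:**
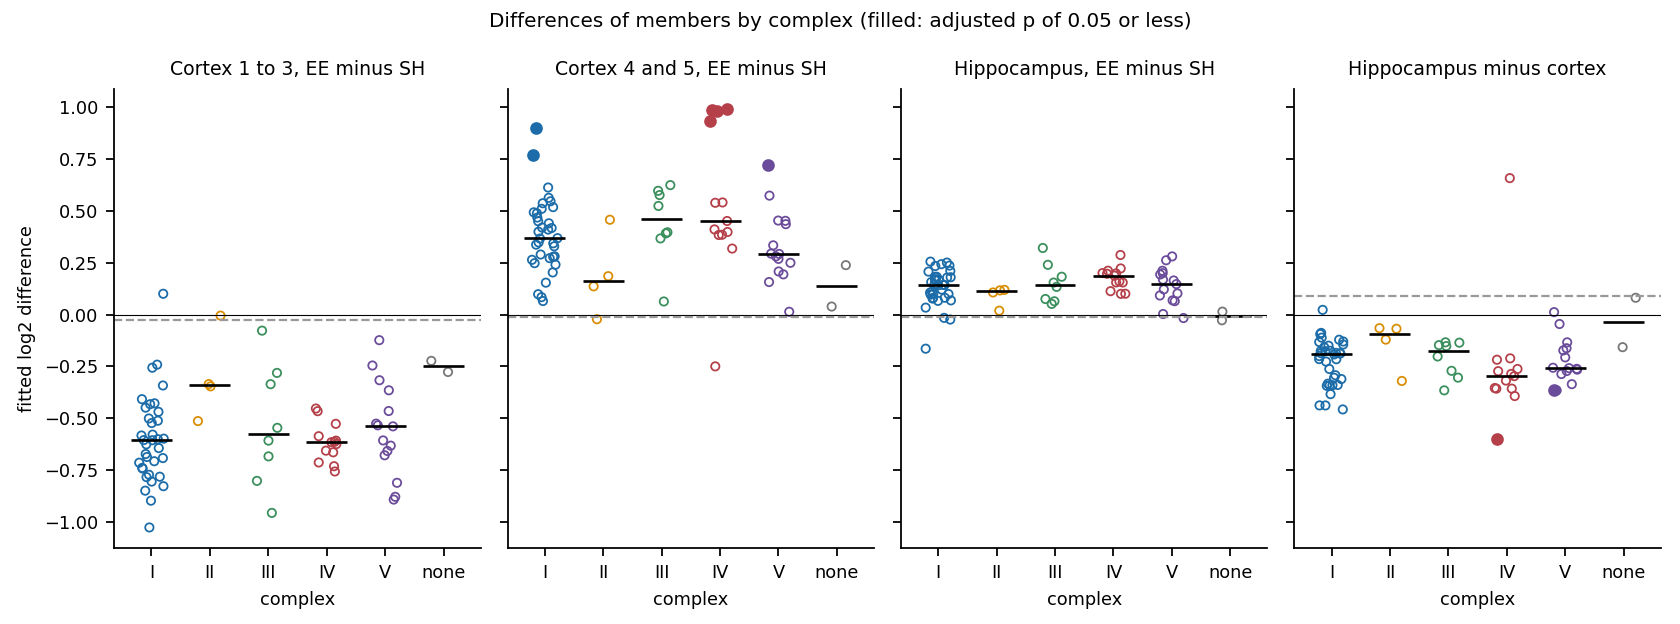
Fitted log2 difference of each member by complex, for EE minus SH in the 3 sets and for hippocampus minus cortex. Filled points passed an adjusted p of 0.05 in limma, bars are medians by complex and dashed lines medians of all genes. Members lie below 0 in cortex replicates 1 to 3, above 0 in cortex replicates 4 and 5 and slightly above 0 in hippocampus.

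Between tissues, members tended to be lower in hippocampus than in cortex. Of 77 members, 2 were called lower, Cox5a and Atp5b, where 10.9% of all genes were, and 0 higher, where 24.6% of all genes were, so 35.4% were called in either direction. There were 7 members at an unadjusted p below 0.05 (9.09%), where 45.3% of all genes had such a p. Median-of-ratios scaling moved the median of all genes from 0.09 to -0.01 and the split to 17.4% higher and 16.02% lower, and called 6 members lower, Cox5a and Atp5b among them. Removing the trend on length and GC content called 39 members lower and 1 higher, where 22.3% of all genes were called lower and 21.6% higher, so the count of members lay below the background in the first fit and above it in this one. The median log2 difference, hippocampus minus cortex, was -0.22 over members and 0.09 over all 13158 genes. By complex it was -0.19 for I, -0.09 for II, -0.18 for III, -0.30 for IV and -0.26 for V. All hippocampus libraries lay below all cortex libraries of replicates 1 to 3 for 3 members, Cox5a, Atp5b and Atp5a1 (3.896%), where 5.5% of all genes had this order. None lay above, where 14.9% of all genes did.

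Cox5a had 114.0 to 138.1 FPKM in hippocampus, with a median between 120.4 and 122.9 FPKM, and 149.2 to 350.3 FPKM in cortex replicates 1 to 3, with a median between 163.7 and 167.8 FPKM. The means were 122.8 ± 8.56 and 195.2 ± 76.8 FPKM (SD, n = 6 and 6), a log2 difference of -0.60 ± 0.17 (SE; limma, adjusted p = 0.0177). Cortex replicates 4 and 5 did not share that separation: SH replicates 4 and 5, at 77.9 and 85.8 FPKM, lay below every hippocampus library. Atp5b had 487.5 to 547.2 FPKM in hippocampus and 586.2 to 895.7 FPKM in cortex replicates 1 to 3, a difference of -0.36 ± 0.12 (SE; limma, adjusted p = 0.0294). Ndufb8, Uqcrc1 and Sdhb, of smallest p in complexes I, III and II, had differences of -0.44, -0.30 and -0.32 with adjusted p of 0.0874, 0.114 and 0.173. Neuron markers summed to 1553.3 to 2474.9 FPKM in hippocampus and 2620.6 to 3282.0 FPKM in cortex replicates 1 to 3, with 3 of 5 called lower in hippocampus. Radial glia and progenitor markers summed to 108.4 to 157.3 FPKM and 81.0 to 93.9 FPKM, with 6 of 6 called higher. Their part in the difference of the members was not tested.

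Cox6b2 was the member with the largest difference in the other direction, 0.66 ± 0.28 (SE; limma, adjusted p = 0.0878). It had 13.6, 15.3 and 12.2 FPKM in hippocampus EE and 24.4, 5.79 and 10.997 FPKM in hippocampus SH, against 5.59 to 14.5 FPKM in cortex replicates 1 to 3, so the tissues overlapped. Choroid plexus markers summed to 5128.7, 10586 and 48.4 FPKM in hippocampus EE replicates 1 to 3 and to 17081, 45.8 and 161.0 FPKM in SH. Cox6b2 and these markers shared their highest hippocampus library, SH replicate 1, and their lowest, SH replicate 2. EE replicates 1 and 3 had similar Cox6b2, 13.6 and 12.2 FPKM, with markers at 5128.7 and 48.4 FPKM. The part of choroid plexus cells in the level of Cox6b2 was not tested.

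The tissue difference turned on which cortex libraries were used. Without cortex SH replicate 3 the member median was -0.07. In that fit 4 members were called lower (among them Ndufs1 and Atp5a1), where 15.2% of all genes were. Cox6b2 was called higher, where 28.5% of all genes were. Among EE libraries alone the median was 0.10, with 9 called higher and 2 lower, where 24.1% of all genes were called higher and 12.6% lower. Among SH libraries alone it was -0.60 with 0 called, where 2.28% and 1.65% of all genes were. With cortex replicates 4 and 5 added, 1 was called, Cox6b2, as higher, where 25.0% of all genes were called higher and 12.5% lower. Cox5a was called in each of the 12 fits that left out 1 library. Atp5b was not called without cortex EE replicate 3, or without hippocampus EE replicate 2, SH replicate 1, 2 or 3.

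Related genes were described from lists chosen with earlier results known. The carriers and subunits outside the symbol rule, Cyc1, Cycs and Ndufab1, had 1 called of 3 in cortex replicates 4 and 5, Ndufab1, the acyl carrier subunit of complex I (0.79 ± 0.21; limma, adjusted p = 0.0106). Cycs, cytochrome c, was lower in hippocampus (-0.40 ± 0.15; limma, adjusted p = 0.0487). Among 22 complex IV assembly factors tested, 2 were called higher in EE in cortex replicates 4 and 5: Cox14, by 1.29 ± 0.21 (limma, adjusted p = 4.4455e-07), and Coa6, a copper factor, by 1.07 ± 0.23 (limma, adjusted p = 6.3311e-04). Among 15 complex I assembly factors, Timmdc1 was called higher there (0.72 ± 0.23; limma, adjusted p = 0.0441). Limma-voom called Cox14 and Coa6 but neither Timmdc1 nor Ndufab1. Between tissues, Acad9 was higher in hippocampus and Ndufaf4 and Coa7 lower. No assembly factor of complexes II, III or V was called in any of the 4 comparisons of EE with SH or in the tissue comparison.

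Regulators of mitochondrial gene expression and the pathways that supply electrons to the chain had no call between EE and SH. Of 13 tested regulators, which include Nrf1, Gabpa, Tfam and Esrra, 0 were called between EE and SH in any set. Their median was -0.04 in cortex replicates 1 to 3 and -0.16 in cortex replicates 4 and 5. Gabpa, a subunit of GABP, was higher in hippocampus (0.51 ± 0.16; limma, adjusted p = 0.0274), as was Polg, the mitochondrial DNA polymerase (0.48 ± 0.09; limma, adjusted p = 0.00110). Of 13 tricarboxylic acid cycle genes, 0 were called between EE and SH, and 3 were lower in hippocampus, among them Sucla2 (-0.33 ± 0.07; limma, adjusted p = 0.00434). Of 16 glycolysis genes, 0 were called between EE and SH, and their medians were -0.30 in cortex replicates 1 to 3 and -0.12 in cortex replicates 4 and 5.

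The members were set beside other lists of short or abundant transcripts, with no test of the difference between lists. The median difference of 77 cytosolic ribosomal protein genes was -0.69 in cortex replicates 1 to 3, 0.38 in cortex replicates 4 and 5, 0.17 in hippocampus and -0.19 between tissues, against -0.61, 0.38, 0.15 and -0.22 for the members. For 77 mitochondrial ribosomal protein genes it was -0.43, 0.27, 0.04 and -0.08. The mitochondrially encoded subunits had medians of 0.13, 0.29, 0.16 and -0.30, with 2 of 12 called higher in EE in cortex replicates 4 and 5, ND6 and ND3. In cortex replicates 1 to 3 their median thus lay above 0 while that of the nuclear members lay below, and 0 of 13 were called there. The mitochondrially encoded subunits summed to 25511, 21799 and 23355 FPKM in EE replicates 1 to 3 and to 24124, 20818 and 15341 FPKM in SH. SH replicate 3 was thus far the lowest, and the other SH libraries overlapped with EE. All genes of up to 1000 nucleotides had medians of -0.44 in cortex replicates 1 to 3, 0.31 in cortex replicates 4 and 5, 0.11 in hippocampus and -0.06 between tissues. Members of that length had -0.66, 0.42, 0.17 and -0.24.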

How the data were processed

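Total RNA from 16 libraries had been extracted with Trizol and prepared with NEBNext Ultra reagents, per the labels. The authors deposited FPKM values by gene symbol, 1 table per library, per the file headers. Tools listed in the submitters' processing notes are HISAT2 2.0.4 and StringTie 1.3.4d, besides cutadapt 1.9, DESeq2 and edgeR, with the build mm10. The role of each tool, the annotation and the filter on listed genes are not given in the sources used here. FPKM are relative to all other transcripts of a library, and what moves short genes together in a library was not tested.

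Tests were two-sided, with limma 3.58.1 in R 4.3.3 (trend) on log2(FPKM + 1), for genes that every library of the comparison lists and whose mean FPKM reached 1. P-values were adjusted by Benjamini-Hochberg over all genes tested, and folds on this scale understate changes of low genes. All 77 members passed the filter. The model for all cortex libraries included the replicate set (1 to 3, or 4 and 5), and that for tissues included treatment. Transcript lengths, GC content and positions came from GENCODE M21, with 1 member matched by synonym, and promoters from RefSeq. Whole reads were recovered at a tolerance of 0.003 reads for at least 99.9562% of genes. For each gene they are the smallest whole values that fit its FPKM in a set of libraries. They can thus fall short of the true reads by a factor that differs between genes and sets. Limma-voom was run on them, an alternative added after the values were seen, and its weights for such genes may be off. Recovery and tests were tested on simulated data.

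The members, lists and comparisons were chosen with earlier results of these data known, and so was the rule for named genes: the member of smallest p in each complex and up to 8 called in each direction per comparison, the highest and lowest member of each complex, fixed isoform sets and core subunits, and up to 2 genes per list. Some genes fall outside the rule and were picked with their values in view. They are Atp5e, Cox4i1, Atp5g1 and Ndufb2 in the single library, Atp5a1, and Cox6b2 between tissues. The genes listed for the order of EE replicates 4 and 5 are also among them.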

Additional observations from a re-analysis of the deposited data

Results flagged for a closer look

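In groups of 5 cortex libraries, a library whose gap to its nearest neighbour took up more than 0.71 of the range was set apart. By chance this happens in about 1 in 20 groups of independent values from a normal distribution, while each group here mixed both replicate sets. Among the SH libraries, replicate 3 was the highest by this measure for the summed FPKM of the members (gap of 0.741 of the range) and for the medians of complexes I (0.738), II (0.727), III (0.801) and V (0.847). Of the genes examined it was so for Ndufa2 (0.773), Uqcr11 (0.825), Cox4i1 (0.785) and Atp5e (0.812). Among the EE libraries, replicate 5 was the highest for the medians of complexes III (0.714) and V (0.772) and for Uqcr11 (0.723). Over all members, 36 of 77 SH groups and 18 of 77 EE groups had such a library. The same count was not made over all genes, so these counts cannot be read as a trait of the members. Members of 1 library also share its preparation.

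Relative to the SH mean of its own set, the median member was below 0 in all 3 EE libraries of cortex replicates 1 to 3 and above 0 in both EE libraries of cortex replicates 4 and 5 and all 3 of hippocampus. The means over EE libraries differed by 0.946 on the log2 scale between the cortex sets and by 0.720 between hippocampus and cortex replicates 1 to 3. Without cortex SH replicate 3 they differed by 0.606 and 0.380. These differences of a median over members were not tested.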

How the results depend on the processing

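In cortex replicates 4 and 5, the 7 calls became 0 once the trend on length and GC content was removed and 12 with a replicate block, all 7 among them, and leaving out single libraries gave 0 to 39 (2 of the 7 among the 39). Over all genes, the 210 higher and 225 lower calls became 6 and 4 with that trend removed and 383 and 383 with the block. Between tissues, the 2 calls became 6 with median-of-ratios scaling and 40 (39 lower) with the length and GC trend removed. They became 1 with quantile normalization, where 16.4% of all genes were called higher and 15.7% lower. With a replicate block they became 1, where 23.0% of all genes were called higher and 10.1% lower. They became 1 with cortex replicates 4 and 5 added, 11 with EE libraries alone and 0 with SH libraries alone. Without single libraries they were 1 to 5, where 19.2 to 28.5% of all genes were called higher and 8.75 to 15.2% lower. The other shares over all genes are given above. The median over members between tissues was 0.10 with EE alone and -0.60 with SH alone. The median for hippocampus minus cortex became 0.37 with quantile normalization, 0.27 with the trend removed and 0.38 to 0.92 without single libraries; that for cortex replicates 4 and 5 minus 1 to 3 became 0.52 and 0.31 in the first 2. Of 39 results for named genes, none changed sign; of their alternatives, 633 kept their side of the threshold, 42 lost a call and 7 gained one. The other counts of calls, all 0, stayed 0 under every alternative run. Same-numbered libraries did not deviate together in every pair. Correlations were 0.07 to 0.38 in cortex replicates 1 to 3, 0.14 in 4 and 5 and -0.56 to 0.44 in hippocampus. Between cortex and hippocampus they were -0.03 to 0.22 in EE and 0.02 to 0.28 in SH. Not every library correlated best with its own number, so the numbers were not used as pairs. The block changed no other count of member calls by over 1.5 times. Members at an unadjusted p below 0.05 rose with the block, from 23 to 55 in cortex replicates 1 to 3. They rose from 29 to 37 in cortex replicates 4 and 5 and from 1 to 4 in hippocampus. For the differences between EE effects they rose from 37 to 55 and from 41 to 64. The other comparisons kept their counts. That share over all genes was not computed with the block. Limma-voom was not run between tissues, since recovered reads are known only up to a factor that can differ between genes and sets. Cox6b2 had the fewest recovered reads of the members, 29 in cortex EE replicate 4.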
